A study of Rattus norvegicus with 18 samples.

Results

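In young rats, late healing of a femoral fracture (4 weeks and 6 weeks) was compared with early healing (3 days and 1 week) across all genes of the array. The comparison rests on 4 of the 18 arrays of the study, 2 late and 2 early, and the young 2 weeks and no fracture arrays are given as references. The young rats were female Sprague-Dawley rats, 6 weeks old at fracture, with a closed transverse fracture of the left femoral shaft that was held by a steel rod in the marrow cavity. The adult and older rats, used for comparison only, were 26 and 52 weeks old at fracture and had the same fracture and rod. Each array held the RNA of 2 rats, pooled, from the middle of the femur, which took in callus, cortical bone, and marrow. The no fracture rats were unfractured controls taken at time 0, so that the young no fracture rats were 6 weeks old and the late groups were 10 and 12 weeks old at harvest. Healing time and the age at harvest cannot be told apart in these rats.

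A fracture through a rodded femur heals by way of a soft callus. Fibroblast-like and contractile cells fill the gap with collagen, cartilage forms beside the break, and both are replaced by woven bone that is later remodeled. The marrow next to the break is torn and displaced, and it is where red cells, granulocytes, mast cell precursors, and B cells are made. Collagen fibers need enzymes that hydroxylate and cross-link them, and these enzymes are active where new matrix is laid down.

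Signals are in arbitrary intensity units and were scaled by the authors to the same average on each array. The 4 arrays were compared by limma on log2 signals, with signals under a floor of 100 raised to 100, so a fold change against such a signal is given as "at least". Each log2 difference is late minus early, n = 2 arrays per period, and the error is the SE of the fit. The 2 time points of a period stood as its replicates, so the error holds the change between 3 days and 1 week or between 4 and 6 weeks, and the spread was pooled with the same periods of the adult and older rats (12 arrays, 6 residual degrees of freedom). With so few arrays, their number limits the precision.

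The young 6 weeks array stood apart in one sign of RNA integrity. Its ratio of 5' to 3' signal for Gapdh, a glycolytic enzyme, was 0.257, against 0.731 to 0.913 on the other 5 young arrays. For beta-actin the ratio was 0.446, against 0.461 to 0.593. The median signal of the 6 young arrays lay between 142.0 and 155, and 41.0% to 43.0% of their signals lay under the floor. On the first principal component (43.4% of the variance), the early arrays lay at 32.5 and 9.1 and the late arrays at -18.7 and -34.7, with 2 weeks at 5.8 and no fracture at -27.8. Markers of bone were bright on every young array, with Col1a1, the main collagen of bone, between 22201.5 and 34116. Markers of skeletal muscle were bright as well, with Ckm, the creatine kinase of muscle, between 15156 and 42265. The macrophage marker Csf1r and the T cell marker Cd3d were too dim to be tested. In these bulk samples fewer cells of a type and less RNA per cell cannot be told apart.

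Of 4669 probe sets tested, 119 were higher late than early (2.55%) and 80 were lower (1.71%) at an adjusted p under 0.05, with 885 at an unadjusted p under 0.05. Higher probe sets stood for 73 named genes and lower ones for 65. Their median log2 difference was 2.18 for the higher and -1.75 for the lower probe sets. The largest rise was on a probe set with no gene symbol, at least 98.5-fold (log2 6.62 ± 0.63, adjusted p = 1.4e-04). Next came another without a symbol, 78.9-fold higher (6.30 ± 0.84, adjusted p = 0.0013). Which genes these probe sets read was not examined. In all 199 the 2 late arrays did not overlap the 2 early arrays, which also held for 44.4% of all probe sets tested. Without the 6 weeks array, 48 of the 119 and 4 of the 80 still passed, and all 199 kept their direction. The median difference was then 2.05 and -1.51.

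**Figure D1:**
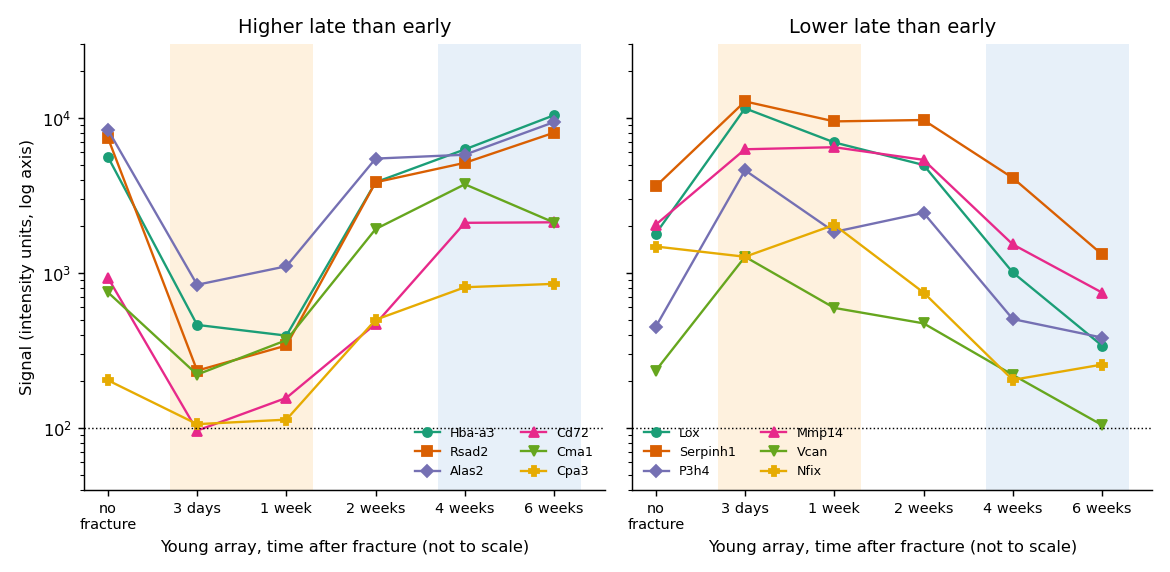
Signals of 12 genes on the 6 young arrays (log axis, intensity units, 1 array per time; the dotted line is the floor of 100). Genes on the left were low at 3 days and 1 week (shaded orange) and high at 4 and 6 weeks (shaded blue), such as Hba-a3 at 462 and 394 and then 6267 and 10417. Genes on the right ran the other way, such as Lox at 11532 and 6950.4 and then 1007 and 339.6.

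Genes of red cell formation rose from early to late healing. Of 12 erythroid genes tested, 9 were higher late and 0 lower, and the median difference was 1.79 against 0.01 over the 2886 genes tested (2.29% of them higher). Hba-a3, an alpha globin chain of hemoglobin, had signals of 462 at 3 days, 394 at 1 week, 6267 at 4 weeks, and 10417 at 6 weeks. Both late arrays were far above both early ones and also above the 5612 of no fracture. The rise was 18.9-fold (log2 4.24 ± 0.48, adjusted p = 5.0e-04). Alas2, which starts heme synthesis in erythroid cells, read 839 and 1104 early and 5789.8 and 9406.5 late, a 7.67-fold rise (2.94 ± 0.53, adjusted p = 0.0092). Its late arrays lay on either side of the no fracture level of 8394. Slc4a1, the anion exchanger of the red cell membrane, read 248 and 360 early and 2078 and 1679.7 late, a 6.25-fold rise (2.64 ± 0.40, adjusted p = 0.0028). It remained below the 5198 of no fracture on both late arrays, and a second Slc4a1 probe set did not pass (0.06 ± 0.44, adjusted p = 0.97).

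The other erythroid genes that rose were Rhd (7.66-fold) and Rhag (at least 3.19-fold), proteins of the Rh complex, Gata1 (at least 4.30-fold), the transcription factor of erythroid and mast cell precursors, the beta globins Hbb-b1 (3.73-fold) and Hbb (3.13-fold), and Alad (2.65-fold), the second enzyme of heme synthesis. Signals of Hbb were 10225 and 11695 early, and 25125 and 46547 late, with 31687 at no fracture. Without the 6 weeks array 2 of the 9 passed. Epb41, which ties the red cell skeleton to its membrane and was picked after its values were seen, rose on both of its probe sets (at least 5.38-fold and 2.80-fold). Summed over the 12 genes, the signal was 19871 and 22168 on the early arrays, 61817 and 109548 on the late arrays, and 84629.6 without fracture.

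Immunoglobulin genes, the antibody genes of B cells and plasma cells, rose late in healing. Several of their probe sets have no gene symbol here and are named by the description that the study's annotation gives. Of 20 such probe sets, picked after the values were seen, 16 were bright enough to be tested and 15 were higher late, none lower. Over all probe sets tested 2.55% were higher late. The median log2 difference of the 16 was 4.27. Of the 20, 9 read the constant region of the kappa light chain from sequences of related rat species, share most of their target, and are not independent. Their median signal was 74.1 at 3 days, 94.5 at 1 week, 487 at 2 weeks, 2655 at 4 weeks, and 2775 at 6 weeks, against 729 without fracture. All 9 were higher late, by log2 3.22 to 5.87, and on all 9 both late arrays exceeded no fracture. Of these 9, the one with the greatest rise read 63.6 and 94.5 early and 5106 and 6706 late. It was at least 58.5-fold higher (5.87 ± 0.45, adjusted p = 4.2e-05).

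Heavy chains of switched antibodies differed among themselves. The gamma-2a probe set read 13.6 without fracture, 8.2, 9.2, and 20.8 from 3 days to 2 weeks, and then 937 and 1478. All 4 arrays up to 2 weeks were under the floor, and the rise was at least 11.8-fold (3.56 ± 0.63, adjusted p = 0.0091). It did not pass without the 6 weeks array (adjusted p = 0.15). The gamma-1 probe set read 11.7 and 7.2 early, and 557 and 359.5 late (at least 4.48-fold, adjusted p = 0.022). Like gamma-2a, it did not pass without the 6 weeks array (log2 difference 2.48, with 1 late array left). Gamma-2c, by contrast, read 244 and 161 early and 271 and 212 late and did not pass (0.27 ± 0.39, adjusted p = 0.76). Without fracture the gamma-2a signal was 1172 in adult and 15275 in older rats, and the kappa median was 1168 and 5609, so these levels were higher on the no fracture arrays of the older ages than on that of the 6-week-old rats. How much of the rise in young rats goes with their age at harvest was not tested.

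**Figure D2:**
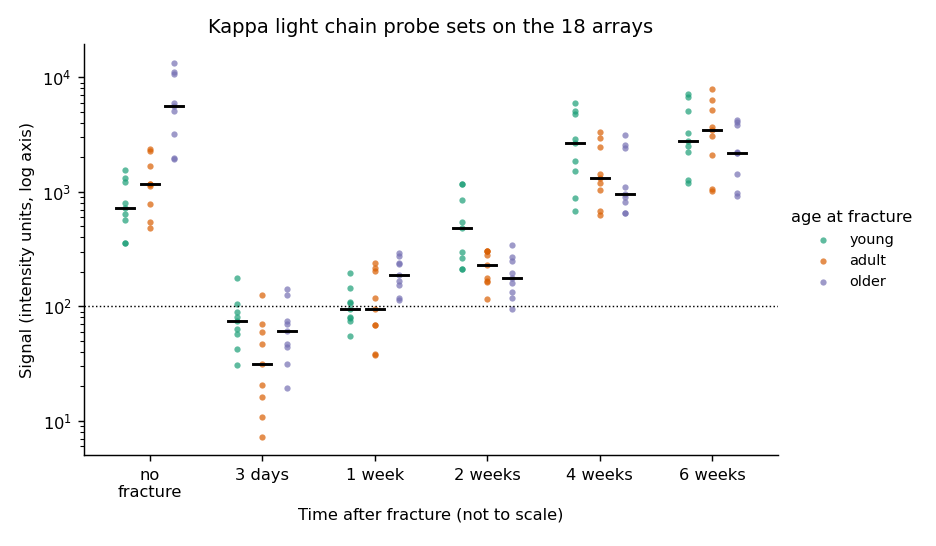
Signals of the 9 kappa light chain probe sets (points, log axis, intensity units) on the 18 arrays, by time and age at fracture; black bars are the medians of the 9 and the dotted line is the floor of 100. Medians fell to between 31.3 and 188 at 3 days and 1 week at all ages. The young late arrays (2655 and 2775) lay above the young no fracture array (729). In the same way the adult late arrays (1324 and 3453) lay above the adult no fracture array (1168). The older late arrays (952 and 2164) lay below the older no fracture array (5609).

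Other genes of the B cell lineage rose as well. Of 10 lymphocyte genes tested 4 were higher late, where 2.29% of all genes tested were higher. They were Cd24 (7.05-fold, with 2 further probe sets also higher) and Cd79b, the signaling chain of the B cell receptor (at least 6.47-fold). Cd37, a tetraspanin (4.16-fold), and Igll1, part of the receptor of B cell precursors (3.45-fold), were the other 2. Signals of Cd79b were 132 and 39.5 early, and 755 and 733 late, with 491 at no fracture. Cd72, a B cell surface receptor, went from 96.1 and 156 to 2106 and 2122, at least 16.9-fold higher (4.08 ± 0.32, adjusted p = 4.2e-05), and both late arrays were above the 932 of no fracture. Ighvl1, an antibody variable gene, was at least 33.0-fold higher (5.05 ± 0.25, adjusted p = 1.3e-06) on one probe set and 5.79-fold on another, and Iglc1, the lambda constant region, rose from 30.7 and 46.0 to 795 and 727 (2.93 ± 0.35). Syk, the kinase that relays the B cell receptor and likewise picked with its values known, read 391 and 307 early and 1361 and 2009 late (4.77-fold, adjusted p = 0.0012). Without the 6 weeks array 2 of the 4 list members passed, Cd24 and Cd79b, and so did Cd72, Ighvl1, Iglc1, and Syk.

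Mast cell genes rose from early to late healing, and most of those called rose past their level without fracture. Of 8 tested, 6 were higher late and 0 lower, with a median difference of 1.91, where 2.29% of all genes tested were higher. Cma1, a chymase of mast cell granules, read 221 and 368 early, 1919 at 2 weeks, and 3732 and 2113 late, against 750.3 without fracture, a 9.84-fold rise (3.30 ± 0.47, adjusted p = 0.0020). Cpa3, the carboxypeptidase of the same granules, read 106 and 113 early, and 809 and 850.3 late, against 203 (7.58-fold, 2.92 ± 0.32, adjusted p = 4.8e-04). The tryptase Tpsab1 rose 6.78-fold and the tryptase Tpsb2 2.73-fold. Ms4a2, a chain of the IgE receptor, was at least 3.33-fold higher, and Srgn, the core protein that holds granule proteases, 4.22-fold, although its late arrays (936 and 1186) stayed below no fracture (1345). Mcpt1l1, a further protease, was at least 11.1-fold higher on one probe set and 3.89-fold on a brighter one. Without the 6 weeks array 3 of the 6 list members passed. The summed signal of the 8 genes was 1539 and 1534 early, 8741 and 7627 late, and 3469 without fracture.

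Motifs were searched on both strands of the 250 bases before the start of each gene in RefSeq promoters (build GRCr8), where 58 of the 73 higher and 49 of the 65 lower genes had an entry. The letters AGATAA, a form of the site that GATA factors read, stood in 5 of the 58 higher genes (8.62%), which were Alas2, Cma1, Cpa3, Gch1, and Rhd, against 1 of 49 lower genes (2.04%) and 135 of 2384 tested genes (5.66%). Over all promoters 2759 of 27457 held it, a larger share than in the higher genes. Of 8 called erythroid genes with an entry, 2 held AGATAA, Alas2 and Rhd. Of the 6 called genes of the mast cell list, only Cma1 and Cpa3 were found to hold it, and Tpsab1 had an entry without it. The stretches of the erythroid and mast cell genes that held it are shown, with the motif in capitals. They lie for Alas2 at chrX:22895296-22895337 and Rhd at chr5:152371110-152371151 on the plus strand, and for Cma1 at chr15:33390174-33390215 and Cpa3 at chr2:104673269-104673310 on the minus strand.
Alas2: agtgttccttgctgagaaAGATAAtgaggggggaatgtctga
Rhd: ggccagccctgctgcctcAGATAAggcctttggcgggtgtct
Cma1: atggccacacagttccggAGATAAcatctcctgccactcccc
Cpa3: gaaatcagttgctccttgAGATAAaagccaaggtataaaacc
The motif began 136, 72, 64, and 55 bases before the start. ATGCAAAT, the octamer of B cell promoters, stood in 1 of 58 higher genes against 1.13% of tested genes, TGACTCA, a site of Fos and Jun, in 3 of 58 higher and 5 of 49 lower genes (10.2%) against 3.10%, and the CArG box in 1 of 58 higher and 0 of 49 lower genes against 1.64%. These matches are descriptions of letters.

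Neutrophil, interferon, and complement genes gave fewer calls, where 2.29% of all genes tested were higher. Of 9 neutrophil granule genes only Defa5, a defensin, passed (4.96-fold, adjusted p = 0.048), and the median difference was 1.90. The 2 late arrays lay above the 2 early arrays for 8 of the 9, where 44.4% of all probe sets tested did not overlap in one direction or the other. S100a8, a subunit of calprotectin, read 3403 and 284 early and 8455 and 14902 late, and did not pass (3.51 ± 0.99, adjusted p = 0.072). Rsad2, an antiviral protein made under interferon, was 22.7-fold higher (4.51 ± 0.53, adjusted p = 5.1e-04), from 234 and 340.3 to 5134 and 8035, with 7450.1 without fracture. A second probe set for Rsad2 rose 14.6-fold. Irf7, a transcription factor of the interferon response, rose 3.77-fold, and the 2 were the called members of 8 tested. Of 26 inflammation genes, Vcam1, an adhesion molecule of vessels and stroma (4.39-fold), and C3, the central complement protein (at least 2.99-fold), were higher and 0 were lower.

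Several genes in no list were higher late. Alox15, a lipoxygenase of eosinophils and red cell precursors, read 159.5 and 124 early and 731 and 1474 late, and was 7.38-fold higher. Even so both late arrays remained far under the 4839 of no fracture, and a second probe set did not pass (adjusted p = 0.10). Gch1, the first enzyme of tetrahydrobiopterin synthesis (7.09-fold), Ctse, cathepsin E (at least 7.05-fold), and Ppp1r16b, a phosphatase subunit (8.19-fold), were among the 8 highest of these. Chosen after their values were seen, Map4k1 (6.28-fold), Atp2a3 (5.31-fold), Cat, catalase (5.41-fold), Coro1a (4.31-fold), Prkcb (4.24-fold), and Cxcr4, the receptor that holds blood cell precursors in marrow (3.94-fold), also passed.

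Some genes that build and cross-link fibrous matrix were lower late. Of 25 fibrous matrix genes tested, 5 were lower and 0 higher, where 1.66% of all genes tested were lower, 24 of the 25 differences were negative, and the median was -0.96. Lox, lysyl oxidase, which cross-links collagen and elastin, read 11532 at 3 days, 6950.4 at 1 week, 4972 at 2 weeks, 1007 at 4 weeks, and 339.6 at 6 weeks. Both late arrays were below the 1792 of no fracture, and Lox fell by 3.94 ± 0.53 on the log2 scale (15.3-fold lower, adjusted p = 0.0013). Of 3 other Lox probe sets, 2 were lower as well, 9.85-fold and at least 4.71-fold, and the last did not pass (-1.68 ± 0.47, adjusted p = 0.068). Serpinh1, the collagen chaperone Hsp47, read 12779 and 9499 early and 4102 and 1318 late (4.74-fold lower, adjusted p = 0.017), and its no fracture level of 3624 lay between the late arrays.

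Vcan, the proteoglycan versican of loose matrix (5.74-fold lower), Plod1, a lysyl hydroxylase (2.61-fold), and Col5a1, which starts collagen fibrils (2.37-fold), were the other members that fell. P3h4, which assists collagen hydroxylation and was listed here among nerve-related genes of the study, read 4594 and 1839 early and 504 and 383 late, against 449.6 without fracture (6.62-fold lower, adjusted p = 0.0062). Col1a2, a chain of type I collagen, did not pass and read 21911.2 and 20483 early and 19607 and 21209.8 late (-0.06 ± 0.29, adjusted p = 0.95). For Col3a1 the brighter probe set did not pass (-0.91 ± 0.29, adjusted p = 0.10) and the dimmer one did (-1.20 ± 0.30, adjusted p = 0.0497). Without the 6 weeks array 1 of the 5 list members, Lox, still passed.

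Matrix proteases, cartilage, and contractile genes gave a few lower calls, where 1.66% of all genes tested were lower. Mmp14, a membrane protease that cuts collagen, was the called member of 26 proteases and inhibitors, with 6279 and 6473 early and 1528 and 747 late (5.97-fold lower, adjusted p = 0.0067). Among 6 cartilage genes Acan, the large proteoglycan of cartilage, read 1562 and 996 early and 215 and 37.1 late (at least 8.50-fold lower, adjusted p = 0.0052). Col2a1, the cartilage collagen, did not pass, with 689 at 3 days, 6591 at 1 week, 14462 at 2 weeks, 629 at 4 weeks, and 106 at 6 weeks, so its early arrays differed from each other by more than those of Acan. Of 11 smooth muscle and myofibroblast genes, Csrp2, a LIM protein (5.92-fold), and Tagln, an actin-binding protein of contractile cells (3.59-fold), were lower, and the median difference was -1.10.

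The immediate early, wound cell, and signaling lists gave 1 to 3 lower calls each, where 1.66% of all genes tested were lower and 2.29% were higher. Of 25 immediate early and stress genes, Fos, Junb, and Jun, which pair as the AP-1 transcription factors, were lower late and 0 higher. Fos read 3581 and 2734 early, and 1051 and 1383 late, with 1101 at no fracture (2.59-fold lower, adjusted p = 0.016). Lgals1, galectin 1 (2.95-fold), and Anxa2, annexin A2 (2.33-fold), were the 2 called of 21 cytoskeleton and migration genes. Fgfr1, a fibroblast growth factor receptor (3.03-fold), was the 1 called of 31 growth factors and receptors, and Fzd2, a Wnt receptor (at least 3.42-fold), the 1 called of 10 Wnt pathway genes. Ccnd2, cyclin D2 (2.26-fold lower), and Cdc25b, a mitotic phosphatase (4.71-fold higher), were the calls among 32 proliferation genes, whose median difference was 0.67.

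Among genes in no list, Nfix, a transcription factor, fell the most by size. It read 1481 without fracture, 1272 and 2043 early, 748 at 2 weeks, and 204 and 256 late (7.04-fold lower, adjusted p = 0.039). Late levels were therefore below no fracture, while early levels were near it. Glg1, a Golgi glycoprotein (at least 6.07-fold), Nedd4, a ubiquitin ligase (5.94-fold), Tmem214 (5.78-fold), Mxd4, a partner of Max (at least 5.32-fold), Pdlim5 (4.84-fold), Copz2, a coat protein of Golgi vesicles (4.51-fold), and Slc4a2, an anion exchanger used by osteoclasts (4.48-fold), completed the 8. Glg1 and Pdlim5 passed without the 6 weeks array. Apoe, apolipoprotein E, chosen after its values were seen, was 3.98-fold lower late, and at 2155 and 1052 it remained above the 550.3 of no fracture on both late arrays. A brighter Apoe probe set did not pass (-0.49 ± 0.36, adjusted p = 0.51). Second probe sets that did not pass also stood for Tmem214 (-0.31 ± 0.34, adjusted p = 0.67) and Slc4a2 (-0.38 ± 0.39, adjusted p = 0.64), and 1 of 3 passed for Nfix.

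The nerve-related genes that the study picked on these and other arrays are no independent evidence of direction. Of 22 tested that it lists as raised, 4 were lower late, P3h4, Slc6a6, the taurine transporter (at least 6.10-fold), Rab14 (at least 4.51-fold), and Dlgap4 (at least 3.94-fold), with a median of -0.76. None of the 10 members listed as lowered that have a symbol passed (median 0.43). Synuclein 1, which the study lists as lowered, has no symbol here and so is not among the 10, but both of its probe sets were higher late, the brighter from 57.3 and 73.3 to 348.0 and 834 (at least 5.39-fold, adjusted p = 0.025) and the other at least 2.86-fold (adjusted p = 0.041). Of 14 listed as different by age, Lypd8l1, known as RoBo-1 (5.83-fold), and Nrgn, neurogranin (at least 3.73-fold), were higher. The Schwann cell and myelin list had 1 call of 9, Cnp, an enzyme of myelin (2.35-fold higher), and the neuron and axon list 0 of 11 (median 0.25). Over all genes tested, 2.29% were higher late and 1.66% were lower.

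Bone and osteoclast genes gave no call. All 9 osteoblast and bone matrix genes failed the test (median -0.45), and Bglap, osteocalcin, read 7422 and 17920.0 early, and 16938 and 16026 late. None of 5 osteoclast genes passed (median 0.16), where Ctsk, cathepsin K, read 7926 and 13266 early and 12849 and 8821 late (0.05 ± 0.59, adjusted p = 0.98) against 1829 without fracture. A second probe set of Car2, carbonic anhydrase 2, which red cells also hold, was higher late (2.20 ± 0.49, adjusted p = 0.028), and the brightest did not pass (1.86 ± 0.64, adjusted p = 0.13). Of 46 mature muscle genes 1 was called, Fbp2, the muscle fructose bisphosphatase, at 99.1 and 289 early and 608 and 651 late. Over all genes tested 2.29% were higher late. The summed muscle signal was 142959 at 3 days, 382728 at 1 week, 381129 at 4 weeks, and 413421 at 6 weeks, so the 3 days array held the least. The part of muscle in the results was not tested. Ucp2, an uncoupling protein of mitochondria, was the 1 call of 30 citrate cycle and fatty acid genes (2.26-fold higher).

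The remaining lists gave 0 calls on the probe set that stood for each gene. Their sizes and median differences were 46 oxidative phosphorylation genes at 0.35, 16 glycolysis genes at 0.10, 37 ribosomal protein genes at -0.18, 28 genes of the endoplasmic reticulum and secretion at -0.63, 16 adipocyte and lipid genes at 0.25, and 14 genes of developing and denervated muscle at -0.96. Immune and vascular lists without a call were 11 macrophage and monocyte genes at -0.05, 8 genes of MHC class II at 0.49, 8 of MHC class I and antigen processing at 0.86, and 12 endothelial genes at -0.26. For the secretory genes 18 of the 28 had both late arrays below both early arrays, where 44.4% of all probe sets did not overlap in one direction or the other.

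**Figure D3:**
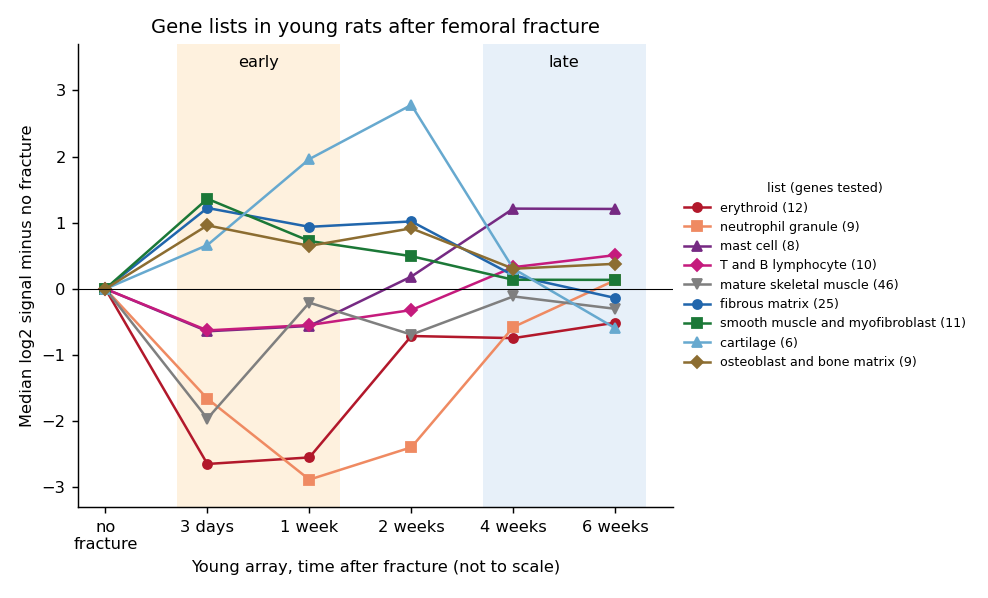
Median log2 signal of 9 gene lists minus no fracture on each young array (1 array per time; the number of genes tested is in the key). Erythroid genes lay at -2.65 and -2.55 early and at -0.74 and -0.51 late, mast cell genes at 1.21 on both late arrays, and fibrous matrix genes at 1.22 and 0.94 early and 0.20 and -0.14 late.

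Early and late levels were placed against the young no fracture array. Taking a difference of 1 or more on the log2 scale as away, 68 of the 119 higher probe sets (57.1%) were away early and near late, against 14.4% of all probe sets tested. The early level of 95 of the 119 was below no fracture by 1 or more, against 9.0% of all probe sets tested. Of the 80 lower probe sets, 43 (53.8%) were away early and near late. The early level of 49 was above no fracture by 1 or more, against 8.61% of all probe sets tested. These counts moved with the limit, to 41 higher and 36 lower probe sets at a limit of 0.5 and to 67 and 26 at 1.5. Beyond the filter on low signals the young no fracture array had no part in the choice of called probe sets, but a difference between early and late levels makes one of them likelier to be away. A further 21 of the higher probe sets (17.6%) lay below no fracture early and above it late, against 0.578% of all, and 47 and 13 did so at limits of 0.5 and 1.5. They held all 9 kappa probe sets, the IgM light chain, Cd72, Iglc1, Cma1, Mcpt1l1, Lig4, and Vcam1. For 19 lower probe sets (23.8%), with Nfix, Tmem214, Eef2, and Hsp90ab1 among them, early was near and late was away, against 3.68% of all.

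**Figure D4:**
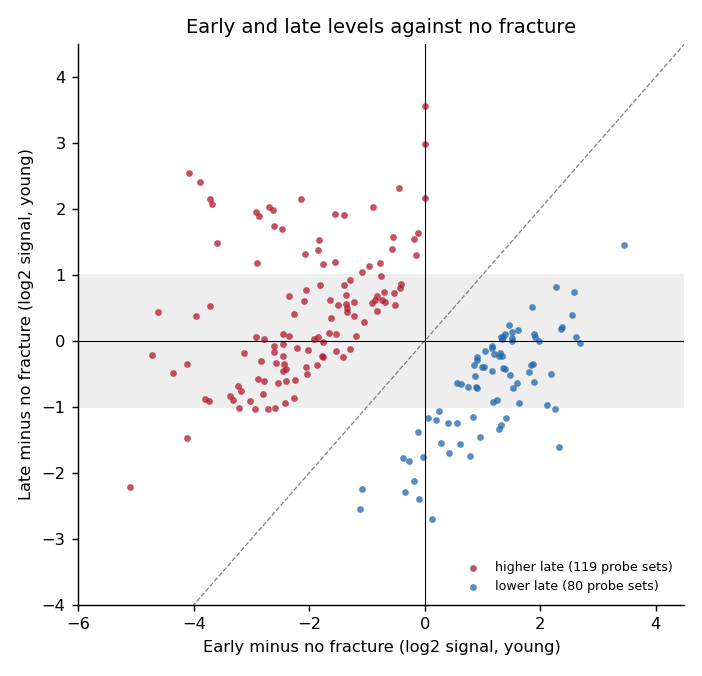
Early minus no fracture (x axis) and late minus no fracture (y axis), log2 signal in young rats, for the 119 probe sets higher late (red) and the 80 lower late (blue); the grey band is within 1 of no fracture and the dashed line marks equal levels. Inside the band lie 68 red points that are left of -1 and 43 blue points that are beyond 1 on the x axis, 21 red points lie left of -1 and above 1, and the called points keep off the dashed line because they were chosen for their late against early difference.

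The 2 weeks array had no part in the test, although a wide gap between the means makes a level between them likelier. For 110 of the 119 higher probe sets (92.4%) and 76 of the 80 lower ones its level was between the early and late means, against 44.1% of all probe sets tested. None of the 199 was above or below both means by 1 or more, but this was rare among all probe sets tested as well (0.493% above and 0.343% below). Within the late period, the level at 6 weeks was above that at 4 weeks for 87 of the 119 higher probe sets (73.1%). It was below that at 4 weeks for 58 of the 80 lower ones (72.5%), against 50.3% of all probe sets tested. The 6 weeks array took part in the choice of the called probe sets, so these shares are not independent of that choice. In contrast, the chymase Cma1 was higher at 4 weeks than at 6 weeks.

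Nearly all called probe sets had the same direction in adult and older rats. Of the 119 probe sets higher late in young rats, 118 (99.2%) had a positive late minus early difference in adult rats and 116 (97.5%) in older rats, against 50.0% and 53.1% of all tested. Of the 80 lower, 79 (98.8%) and 77 (96.2%) were negative, against 49.9% and 46.8%. The median difference of the higher probe sets was 2.18 in young, 1.59 in adult, and 1.64 in older rats, and that of the lower ones -1.75, -1.04, and -0.78. The sets were chosen for their size in young rats, which by itself makes the young medians the larger. By the test of the difference between ages, 0 probe sets passed for young against adult rats (0%, 129 at an unadjusted p under 0.05) and 0 for young against older rats (0%, 248 at an unadjusted p under 0.05). On simulated data these tests recovered only 24% and 18% of probe sets changed by log2 2, and 0% of those changed by log2 1. Other settings gave calls, with a term for time within a period 5 lower for young against older rats, and with no filter on low signals 3 higher and 9 lower against older and 2 higher and 3 lower against adult rats.

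**Figure D5:**
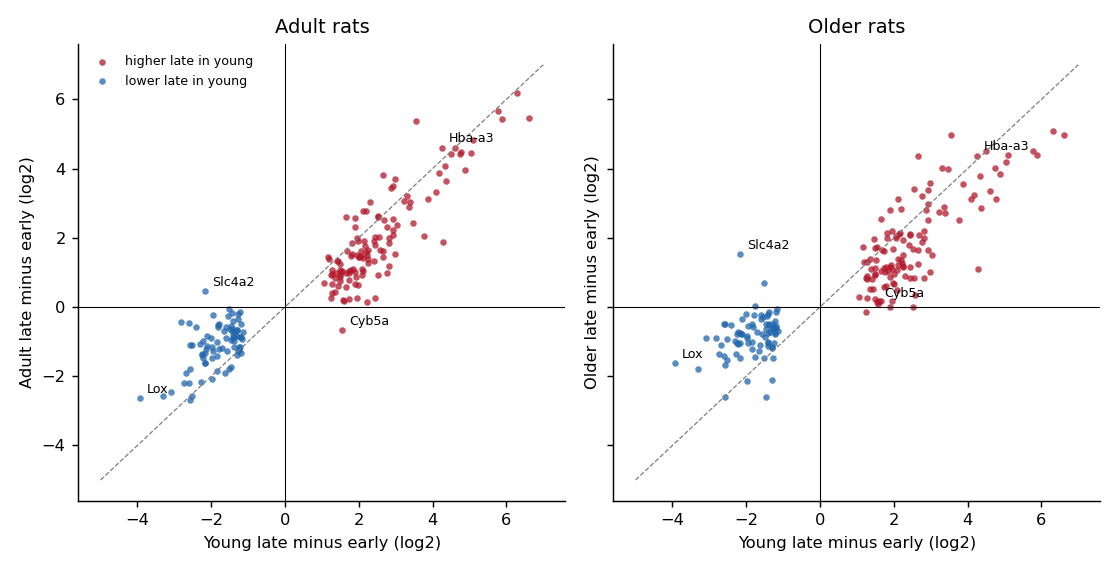
Late minus early log2 difference in young rats (x axis) against that in adult (left) and older rats (right) for the 199 called probe sets; the dashed line marks equal differences. Nearly all points share the sign of young rats, 118 of 119 and 79 of 80 in adult rats, where Slc4a2 and Cyb5a are the exceptions.

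The differences from the other ages that were greatest in size are given although none passed the main test. Against adult rats, young rats had the more positive change for RT1-Bb, a chain of MHC class II, Nras, Mx2, Cyb5a, and Hmgb2, and the more negative change for Mmp9, Col2a1, Slc4a2, Myl2, and Nfix. Compared with older rats it was more positive for Myog, a muscle transcription factor, Prg2, the major basic protein of eosinophils, S100a8, S100a9, and Cd24, and more negative for Mmp9, Col2a1, Slc4a2, Acp5, and Gal. Mmp9, gelatinase B of osteoclasts and neutrophils, changed by -1.37 ± 1.25 in young, 2.50 in adult, and 3.29 in older rats (adjusted p = 0.999 and 0.876 for the differences from adult and older rats). Cd24, whose brightest probe set was 7.05-fold higher late in young rats, changed by log2 2.82 in young, 1.19 in adult, and 0.83 in older rats (adjusted p = 0.876 for young against older rats).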

How the data were processed

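The deposited values are signal intensities of Affymetrix rat oligonucleotide arrays, which the authors made with Microarray Suite 5.0 and brought to a common average of 500 per array. The labels call these arrays the first series of the study, and further series were not used here. Of 8799 probe sets, 59 were controls, 7018 had 1 gene symbol, 308 had several, and 1473 had none in the platform annotation. Signals under 100 were raised to that floor and log2 was taken. Probe sets at 200 or more on at least 3 of 18 arrays were tested (4669, of which 3877 with 1 symbol stood for 2886 genes). The early and late arrays of the 3 ages, 12 in all, were fitted with limma 3.58.1 in R 4.3.3 (6 means of age and period, eBayes with trend, two-sided). P-values were adjusted over all tested probe sets (Benjamini-Hochberg), and 0.05 was the threshold. As time points of a period stand for replicates, p-values measure the spread between time points, not between rats.

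The text names the 15 highest and 15 lowest called genes whose brighter period averaged at least 500, the 8 highest and 8 lowest in no list, up to 5 called members of each of 34 lists in each direction or else up to 3 of the brightest, and 5 genes each way for the age differences. Members and lists were chosen with earlier results of these data known. A gene in a list is read by its brightest probe set. Alternatives were other floors, filters and normalizations, 1 probe set per gene, fewer arrays, a time term, the t-test of the methods, and each array left out. On simulated data for the young comparison, 70% of 100 probe sets changed by log2 2 and 13% of those changed by log2 1 were recovered. For young against adult rats 24% and 0% were recovered, and for young against older rats 18% and 0%.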

Additional observations from a re-analysis of the deposited data

Results flagged for a closer look

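The late against early change of 6 named genes had opposite directions in young rats and at another age, with no overlap of late and early arrays at either age. The differences were tested between ages by limma, and none passed after adjustment. Of the 6, Cyb5a and Slc4a2 were called in young rats. Cyb5a, cytochrome b5, rose in young rats (395 and 442 early, 1378 and 1065 late) and read 1194 and 969 early and 520.0 and 872 late in adult rats. The difference between young and adult rats was 2.21 ± 0.50 on the log2 scale (adjusted p = 0.999). A second Cyb5a probe set did not pass in young rats (0.03 ± 0.34, adjusted p = 0.98).

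Slc4a2, an anion exchanger, was lower late in young rats (369 and 940.1 early, 167 and 103 late) and higher late in adult (264 and 422, then 436 and 483) and older rats (199 and 373, then 856 and 725). The difference was -2.62 ± 0.67 from adult rats (adjusted p = 0.999) and -3.69 ± 0.67 from older rats (adjusted p = 0.686). As given above, a second Slc4a2 probe set did not pass in young rats.

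The other 4 did not pass in young rats. Mmp9, gelatinase B, read 1888 and 6087 early and 1468 and 1168 late in young rats, 130.3 and 2492 and then 3347 and 3124 in adult rats, and 145 and 1758 and then 6333 and 3861 in older rats. It differed by -3.88 ± 1.76 from adult and by -4.66 ± 1.76 from older rats. RT1-Bb, a chain of MHC class II, read 123 and 330.2 early and 1148 and 330.6 late in young rats against 350.1 and 694 and then 125 and 77.0 in adult rats, a difference of 3.76 ± 1.13. Gal, galanin, read 418 and 780.4 and then 202 and 14.7 in young rats against 167 and 237 and then 536 and 480.0 in older rats (-3.36 ± 0.86). Spp1, osteopontin, read 11364 and 12050 and then 9071 and 8063 in young rats against 7601 and 6369 and then 9790.4 and 10151 in older rats (-0.97 ± 0.33).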

How the results depend on the processing

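The main counts in young rats, 119 higher and 80 lower, depended on the spread that was used and on single arrays, young 6 weeks and young 3 days above all. Leaving out single arrays gave 48 to 141 higher and 4 to 120 lower, lowest without young 6 weeks, and 69 and 14 without young 3 days. Lower calls were 53 without adult 4 weeks and 52 without adult 6 weeks. With only the 4 young arrays 62 were higher and 20 lower, with young and adult arrays 45 were lower, with a term for time within a period 235 and 274, with no filter 75 and 22, with a floor of 200 51 were lower, and with 1 probe set per gene 66 and 47. The methods' t-test gave 1 and 0 after Benjamini and Hochberg adjustment and 227 and 225 at an unadjusted p under 0.05. For young against adult rats no filter gave 2 higher and 3 lower, and leaving out arrays gave 0. For young against older rats no filter gave 3 and 9, a time term 5 lower, and leaving out single arrays 0 to 1 in each direction. A limit of 0.5 gave 41 higher probe sets away early and near late, and a limit of 1.5 gave 26 lower ones. At a floor of 200 the direction was shared by 93.3% and 100% of the higher and lower probe sets in adult rats and by 90.4% of the higher ones in older rats. For the 128 named genes, 0 of 3309 values under the alternatives passed in the opposite direction, 379 no longer passed, and 42 newly passed. Differences that did not pass could change sign, as for Ctsk (0.05, and -0.32 without young 3 days). The cause of these shifts was not tested. No paired analysis was possible because the labels give no replicate numbers, and the numbers used here only name time points. Signals under the floor have no order, which limits dim genes.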
